A study of Rattus norvegicus with 10 samples.

Results

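The genes described here are the second-messenger kinases and the serine/threonine phosphatases of the rat hypothalamus area, chosen by symbol alone. A symbol was taken when it began with Camk, Prkac or Prkar, was Prkc with a single further letter, or joined Mapk or Map2k to a digit. Phosphatase symbols joined Ppp to a digit and then c or r. On the array, which reads a transcript by a set of short probes called a probe set, 189 probe sets carried exactly 1 such symbol, and they covered 116 of the 14218 genes with a single symbol. Each gene was read from its brightest probe set by mean log2 signal. By symbol, 46 genes stood on the kinase side and 68 on the phosphatase side. The remaining 2, *Camkmt*, a methyltransferase of calmodulin, and *Map2k3os*, an antisense transcript by its symbol, belong to neither.

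The study asked how mild calorie restriction (CR, less food without malnutrition) alters gene expression. Male Wistar rats, an outbred strain, were 6 weeks old at the start and received the AIN-93G diet reduced by 5, 10, 20 or 30% of the control intake for 1 week, or in full as control, housed singly. After a fast of 16 h the RNA of 5 rats went into 1 pool and each pool onto 1 Affymetrix array, so the 5 groups used here gave 5 arrays, and no group had a second one. The labels give the tissue as brain and the methods place the sample in the hypothalamus area. The 5 columns of 1 month were not used, because log2 signals in their rows correlated with the 1 week rows at only 0.0357 to 0.0525. Signal is the MAS5 intensity on a linear scale, and all differences are in log2 signal, CR minus control.

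These proteins turn short-lived signals into changes of protein phosphorylation. Cyclic AMP releases the catalytic subunits of protein kinase A (PKA) from its regulatory subunits, calcium bound to calmodulin activates the CaM kinases and the phosphatase calcineurin, and diacylglycerol activates most isoforms of protein kinase C (PKC). MAP2 kinases phosphorylate MAP kinases at the end of a cascade that begins at receptors and stress. Protein phosphatases 1 and 2A (PP1 and PP2A) remove the phosphate again and gain their targets from a large set of regulatory subunits. In hypothalamic neurons these pathways carry signals of hormones, neuropeptides and synaptic activity, and in mice the CaM kinase kinase encoded by *Camkk2* has a role in feeding.

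The CR arrays resembled each other more than the control array, with correlations of log2 signal of 0.912 to 0.922 among them and 0.852 to 0.874 with control. Signals under 10 made up 11.71 to 14.35% of values on the CR arrays and 24.02% on the control array. The 3'/5' log2 ratio of GAPDH, which reads RNA integrity and labelling, was 0.40 to 0.79 in CR and 0.19 in control, and that of beta-actin 2.19 to 2.80 in CR and 1.90 in control. All 24 probe sets of the added poly-A spikes were higher on the control array (median log2 difference 1.23, control minus CR). How far these differences between arrays enter the values below was not tested. Of 14 hypothalamic neuron markers on the array 12 were tested, with *Npy* (1.25), *Cartpt*, *Sst* and *Resp18* higher and *Trh* (-1.09) lower. That is 41.7% called, beside 25.5% of all probe sets tested. *Oxt* (-0.37) and *Hdc* (-0.32) lay below control on all 4 CR arrays, and *Pmch*, *Hcrt*, *Gal* and *Nr5a1* above it, without being called. The 14 markers summed to 32120.5 to 34706.7 in CR and 27946.0 in control. The signal of *Pomc* was only 4.9 to 14.8 in CR and 2.6 in control. Of 7 oligodendrocyte markers, *Mog* (-1.35), *Mal* (-1.26) and *Ugt8* (-1.36) were lower. The others, *Mag* (-0.30), *Mobp* (-0.00045), *Mbp* (0.07) and *Cnp* (0.24), were not called, and *Mbp* and *Cnp* lay above control on all 4 CR arrays. The 7 markers summed to 19969.4 to 21706.1 in CR and 21730.3 in control. Of 7 pituitary markers 3 were tested and called higher, with sums of 2054 to 2855 in CR and 991 in control, but *Tshb* and *Lhb* were under the cut of the filter described next in control and were tested only through their CR signals. The same held for *Ttr* of the choroid plexus (110.5 to 202.6 in CR, 35.5 in control). The part of these markers in the results was not tested. In bulk RNA, fewer cells of a type and less RNA per cell cannot be told apart.

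A gene was tested when the mean of its probe set lay above the median of all probe sets, a signal of 53.3, and 96 of the 116 members passed. The dimmest member inside had a mean of 54.0 and the brightest outside 46.2. The filter weighted CR more than control, since 4 of the 5 arrays were CR, so a gene high in CR passed more easily, and 3 tested members had a control signal below the cut, of which *Prkca* was called. The 20 members left out had signals of at most 111.7 on any array. They included *Camk4*, a nuclear CaM kinase (33.6, 25.2, 38.9 and 44.4 at 5, 10, 20 and 30% CR, 36.0 in control), and *Camkk2* (13.3 to 64.4 in CR, 20.0 in control). *Ppp3cc* and *Ppp3r2*, calcineurin subunits known from testis, were also left out.

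Calorie restriction was compared with control with the 4 CR levels as a single group. Of the 96 tested members, 20 were called, 8 higher and 12 lower (limma, Benjamini-Hochberg adjusted p under 0.05 over all probe sets tested). That is 20.8% of members, beside 25.5% of all 15521 probe sets tested and 22.9% of the brightest probe sets of 9479 named genes, so the share was near the background. By direction, 8.33% of members were higher and 12.5% lower, against 14.5 and 11% of all probe sets and 11.6 and 11.3% of named genes. In 22 members all 4 CR arrays lay above control (22.9%, against 37.1% of all probe sets and 33.3% of named genes). In 45 all 4 lay below it (46.9%, against 33.1 and 35.9%). The median difference of the 96 members was -0.13, beside 0.03 over all probe sets tested and -0.02 over the brightest probe sets of named genes. Each call rests on a single control array, taken to have the same spread as CR, and diet cannot be told apart from that pool or array.

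**Figure D1:**
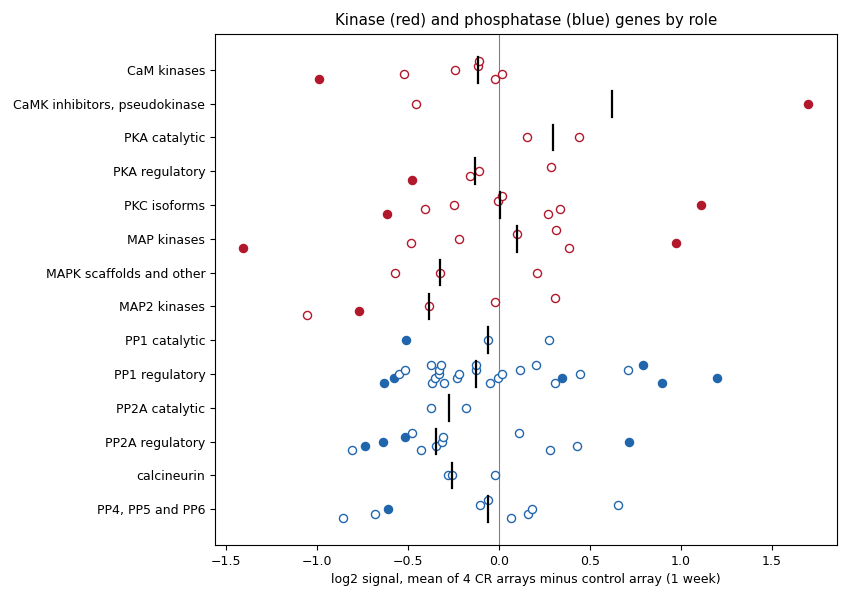
Each point is a tested member at its log2 difference, mean of CR minus control at 1 week (x axis, 4 arrays and 1 array), in rows by role, kinase side red and phosphatase side blue. Filled points had an adjusted p under 0.05 by limma, open points did not, and black bars are row medians. The 20 filled points run from -1.40 for *Mapk9* to 1.70 for *Camk2n1*.

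The kinase and phosphatase sides were called at the same rate. Of 38 tested kinase-side genes 3 were higher and 5 lower, and of 57 tested phosphatase-side genes 5 were higher and 7 lower, 21.1% of each. The median difference was -0.11 for kinases and -0.22 for phosphatases. At 5, 10, 20 and 30% CR the kinase median lay 0.10, 0.11, 0.13 and 0.09 above the phosphatase median, and these 4 values share the control array. Catalytic kinases alone had a median of -0.02 with 6 of 29 called, and catalytic phosphatase subunits -0.18 with 1 of 9 called, while 11 of 48 phosphatase regulatory subunits were called. The order of both sides rested on the choice of probe set, because the kinase median was 0.04 below the phosphatase median when all probe sets of a gene were averaged. Both medians were negative under the deposited scaling, and centring each array on its median moved the median of all probe sets tested to -0.41, so that 47 members were called, 2 higher and 45 lower, beside 39.1% of all probe sets.

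**Figure D2:**
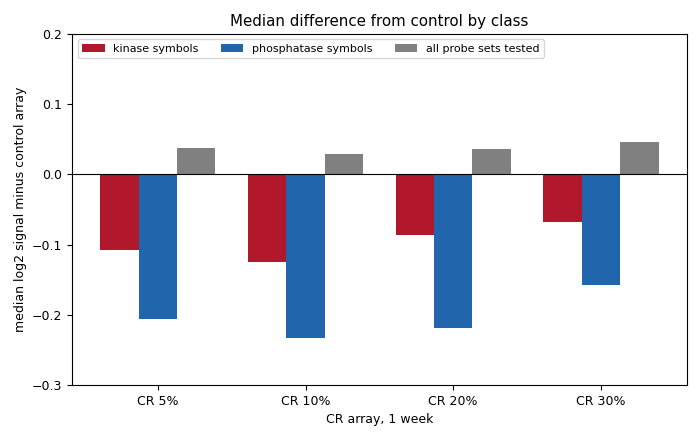
Bars are median log2 differences from the control array (y axis) for 38 kinase-side genes, 57 phosphatase-side genes and all 15521 probe sets tested on each of the 4 CR arrays of 1 week (x axis). On every array the phosphatase bar is the lowest, -0.16 to -0.23, and the bar of all probe sets is slightly above 0.

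The promoters of the members were searched for the cyclic AMP response element, since PKA and CaM kinase IV act on the factor CREB that binds it. RefSeq promoters of the GRCr8 assembly, 250 bases before to 50 after the start, matched 96 of the 116 genes. The full element TGACGTCA, which reads the same on both strands, occurred in 5 of them (5.21%, against 1.91% of 27457 promoters). It was in none of the 16 promoters of called members that matched. The 5 windows are shown because they carry the element of the pathway, given in capitals within 30 bases on the strand of the gene.

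Ppp2ca: tgacgccggcgTGACGTCAccacgccgggc
Ppp1r15a: cgcctctccggTGACGTCAgcatagcgctg
Ppp1r12c: ggccagcggcgTGACGTCAatacaccgagc
Ppp2r2d: gcggagggggaTGACGTCAtccggcggggc
Mapk1ip1: gccccgccggaTGACGTCAtccccctccgc

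The element began 53, 66, 69, 65 and 88 bases before the start in this order. The windows lie at chr10:36858973-36859002 (plus strand) for *Ppp2ca*, chr1:105139644-105139673 (minus) for *Ppp1r15a* and chr1:78362848-78362877 (plus) for *Ppp1r12c*, in GRCr8. *Ppp2r2d*, a B subunit of PP2A (plus), and *Mapk1ip1* (minus) lie head to head and share the window chr1:203095506-203095535, so that their lines are the same site read on opposite strands. Both were below control on all 4 CR arrays without passing. *Ppp2r2d* had 369.0, 419.9, 367.4 and 426.1 in CR and 530.8 in control (-0.43, adjusted p = 0.074), and *Mapk1ip1* had 132.6, 135.0, 98.8 and 167.0 in CR and 194.7 in control (-0.57, adjusted p = 0.181). *Ppp1r15a*, a stress-induced PP1 subunit, and *Ppp1r12c*, a myosin phosphatase subunit, were at -0.05 and 0.20. The shorter TGACG, contained in the element and searched on both strands, was in 35.4% of the matched member promoters and in 22.0% of all. Among called members it was in 5 of 10 that were lower and in none of 6 that were higher, values that describe letters and not sites in use.

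Of the CaM kinase I genes *Camk1* was lower in CR, whereas *Camk1g* and the CaM kinase II isoforms did not pass the test. For *Camk1g* (-0.02) the control signal of 449.4 lay within the CR range of 387.1 to 475.0. Its other probe set, dim in CR and not tested, had 11.7 to 34.9 in CR, against 141.9 in control. *Camk1*, a kinase switched on by CaM kinase kinases, had signals of 244.5, 189.2, 183.3 and 283.4 at 5, 10, 20 and 30% CR, against 438.8 in control. All CR arrays were below control, and *Camk1* fell by 0.99 on the log2 scale (SD 0.30, n = 4, adjusted p = 0.018 by limma). *Camk2a* and *Camk2b*, the main subunits of the neuronal CaM kinase II, had differences of 0.02 ± 0.14 and -0.11 ± 0.04. For *Camk2a* the control signal of 376.5 lay within the CR range of 347.9 to 436.0, and for *Camk2b* the CR signals of 1498 to 1603 were all below 1684.5. The other *Camk2b* probe set went the opposite way, with 1561.4 to 1682.2 in CR, all above 1449.2 in control (0.14, not called). *Camk2d* (-0.52) was below control on all 4 arrays and just missed the threshold (adjusted p = 0.051). Of 7 tested CaM kinases, 1 was lower and none higher (14.3% called, beside 22.9% of named genes).

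*Camk2n1*, an inhibitor of CaM kinase II, had the largest positive difference among the tested members, yet its probe sets went opposite ways. On the brighter probe set it had 298.8, 288.1, 370.7 and 233.6 in CR from 5 to 30%, against 90.4 in control, a log2 difference of 1.70 ± 0.27 (SD, n = 4, adjusted p = 0.0012). On the other it had 195.9, 200.2, 185.7 and 173.3 in CR, against 308.1 in control, a difference of -0.71 (adjusted p = 0.023 by limma). Both passed the test, their average did not (0.50, adjusted p = 0.102), and no direction can be given for the gene. *Camkv*, a kinase-like protein without activity, was at -0.45 (adjusted p = 0.065), and its second probe set was at 0.59.

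In PKA, by the brightest probe set, 1 of 4 regulatory subunits was called (25%, beside 22.9% of named genes) and neither of the 2 catalytic ones. *Prkar2a*, a regulatory subunit that binds anchoring proteins, had almost the same signal on all CR arrays, 307.5, 304.1, 308.2 and 307.6, against 427.3 in control. It fell by 0.48 (SD 0.01, n = 4, adjusted p = 0.045 by limma), and the call was lost without any single CR array, with quantile scaling, with cyclic loess and without the intensity trend (adjusted p = 0.059 to 0.115). Its 2 other probe sets, dim and not tested, were higher in CR (17.6 to 51.8 and 8.2 to 15.9, against 8.2 and 7.7 in control), and the average of all 3 was 0.72. *Prkar1a* had 4613, 4842.3, 4621.5 and 4290.3 in CR and 3760.1 in control, a difference of 0.29 (adjusted p = 0.061), with all CR arrays above control. Other tested probe sets of *Prkar1a* went the other way, at -0.23, not called, and at -1.50, called lower. *Prkar2b* was at -0.16 and *Prkar1b* at -0.11. For *Prkacb*, treated next, another tested probe set was called lower, at -1.58. The catalytic subunits *Prkaca* (0.44 ± 0.36) and *Prkacb* (0.15 ± 0.23) did not pass, and *Prkaca* had 943.8 at 10% CR beside 551.5 to 679.8 on the other CR arrays and 492.2 in control.

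Of the 8 PKC isoforms, all tested, 2 were called (25%, beside 22.9% of named genes) and 6 did not pass. The 2 include *Prkca*, which entered the test only through its CR signals. *Prkca*, a conventional form that responds to calcium and diacylglycerol, had 83.1, 88.2, 104.8 and 87.0 in CR. Its control signal was 41.9, a log2 difference of 1.11 ± 0.15. That control signal was under the cut of the filter, so the gene was tested only because its CR signals were high. Its difference is given as a value. *Prkci*, an atypical form that needs neither messenger and acts in cell polarity, had 443.5, 466.3, 443.7 and 444.0 in CR, against 686.2 in control, and fell by 0.61 (SD 0.04, adjusted p = 0.010 by limma). It was called under the 13 alternatives that tested it, and averaging its probe sets, the remaining alternative, left it below the filter. Of its other probe sets, both dim and not tested, one had 62.8, 53.2, 66.9 and 52.1 in CR, against 1.3 in control, and the other 5.3 to 13.3 in CR, against 20.4 in control. The average of the 3 probe sets was 1.14, opposite in sign to the call. *Prkcb*, *Prkcd*, *Prkce*, *Prkch*, *Prkcq* and *Prkcz* had values between -0.41 and 0.34 and did not pass, and the call of *Prkca* was lost under 5 of 13 alternatives, among them leaving out the array of 10% CR (adjusted p = 0.052) or 20% CR (0.064) and quantile scaling (0.180).

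Among 7 tested MAP kinases 1 Jun kinase was lower and 1 p38 isoform higher (28.6% called, beside 22.9% of named genes). *Mapk9*, which encodes the Jun kinase JNK2, had 118.9, 165.2, 94.3 and 119.8 in CR, against 322.8 in control. All CR arrays were far below control, and *Mapk9* fell by 1.40 on the log2 scale, the largest decrease among the tested members (SD 0.33, adjusted p = 0.0079 by limma). It was called under all 13 alternatives that tested it. A second, dimmer probe set that was not tested had 7.3 to 28.0 in CR and 117.4 in control. *Mapk12*, a p38 form known best from skeletal muscle, had 129.7, 162.2, 180.1 and 172.8 in CR, against 81.4 in control, a difference of 0.97 ± 0.21 (adjusted p = 0.021). The call of *Mapk12* held under 12 of the 13 alternatives that tested it, with differences down to 0.54. *Mapk8*, which encodes JNK1, was at 0.10 ± 0.18, with 255.7 to 341.7 in CR and 283.5 in control. *Mapk14*, the widely expressed p38 alpha, was at -0.48 ± 0.18 and below control on all 4 arrays (adjusted p = 0.111).

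*Map2k1*, which encodes the ERK-activating kinase MEK1, was the called MAP2 kinase of 5 tested (20%, beside 22.9% of named genes). Its signals were 691.5, 548.3, 638.1 and 561.8 in CR, against 1034.7 in control. *Map2k1* fell by 0.77 (SD 0.16, adjusted p = 0.0066 by limma) and kept its call under all 14 alternatives. *Map2k2*, the close relative MEK2, was at -0.38 (adjusted p = 0.089). *Map2k6*, which activates p38, had a wide spread, with 80.7, 58.5, 19.1 and 52.4 in CR and 96.8 in control (-1.05 ± 0.90, adjusted p = 0.288). The JNK scaffold *Mapk8ip1* was at -0.32 on its brightest probe set, which did not pass, and at -1.19 on the other, which did.

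Of the 3 catalytic subunits of PP1, 1 was lower and none higher (33.3% called, beside 22.9% of named genes). *Ppp1ca* had 1250.1, 1104.2, 1080.7 and 1306.0 in CR, against 1681.2 in control, and fell by 0.51 (SD 0.13, n = 4, adjusted p = 0.021 by limma). *Ppp1cc* had 2263.4, 2478.5, 2341.1 and 2141.5 in CR, against 1901.5 in control, with all CR arrays above it (0.28 ± 0.09, adjusted p = 0.098). *Ppp1cb* differed among the CR arrays themselves, with 833.5 and 658.8 at 5 and 10% and 1264.1 and 1171.9 at 20 and 30%, around 988.5 in control (-0.06 ± 0.44). The call of *Ppp1ca* was lost without the intensity trend (adjusted p = 0.105).

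Of 27 tested PP1 regulatory subunits 4 were higher and 2 lower, 22.2% called, beside 22.9% of named genes. *Ppp1r7*, an ancient regulator of PP1, had 215.1, 237.8, 251.4 and 196.8 in CR, against 97.7 in control (1.20 ± 0.16, adjusted p = 0.0035). Its second probe set went the other way, with 120.0 to 161.8 in CR and 237.4 in control (-0.76, adjusted p = 0.053), and the average of both was 0.22 and not called. *Ppp1r8*, a nuclear inhibitor of PP1, had 673.3, 719.2, 801.4 and 784.1 in CR, against 428.8 in control, and rose by 0.79 ± 0.12 (adjusted p = 0.0037 by limma). *Ppp1r14c*, an inhibitor whose potency PKC raises, had 154.2 to 192.9 in CR, against 91.7 in control (0.90 ± 0.17, adjusted p = 0.021), and 0.13 with its probe sets averaged. *Ppp1r1a*, an inhibitor that PKA switches on, had 1235.1, 1295.2, 1209.8 and 1189.9 in CR, against 968.1 in control, the smallest called difference (0.35 ± 0.05, adjusted p = 0.048). Its call held under 6 of 14 alternatives, was lost without the array of 5, 10 or 20% CR (adjusted p = 0.098, 0.091 and 0.061), and its sign turned to -0.09 with median centring, which also ended the calls of *Ppp1r8* and *Ppp1r14c*.

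Both called decreases among PP1 regulators were close to 1.5-fold. *Ppp1r16b*, a membrane-bound subunit known from endothelial cells, had 393.2, 355.3, 360.6 and 412.6 in CR, against 588.5 in control (-0.63 ± 0.10, adjusted p = 0.015). The 5 endothelial markers summed to 1178 to 1439 in CR and 1398 in control, with 1 higher and 1 lower, and their part in this result was not tested. *Ppp1r11*, a further PP1 inhibitor, had 638.9, 618.0, 585.4 and 661.8 in CR, against 931.1 in control (-0.57 ± 0.08, adjusted p = 0.011). *Ppp1r1b*, which encodes the dopamine-regulated inhibitor DARPP-32 and is rich in striatum, was at -0.12 ± 0.12, with 288.0 to 350.5 in CR around 337.3 in control. Among 6 tested striatal markers, *Pde10a* was higher and no other was called. *Penk* (-0.36) lay below control on all 4 CR arrays, and *Drd1* (0.55) and *Drd2* (0.38) above it. The 7 striatal markers on the array summed to 1895.0 to 2117.5 in CR and 2192.8 in control.

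Of 13 tested PP2A regulatory and scaffold subunits 3 were lower and 1 higher, beside 11% lower and 14.5% higher of all probe sets. All 4 CR arrays were below control in 9 of the 13, a larger share than the 33.1% of all probe sets and 35.9% of named genes. The median was -0.35, beside 0.03 over all probe sets tested. *Ppp2r2b*, a B subunit rich in brain, had 665.0, 683.5, 565.0 and 590.7 in CR, against 1040.1 in control. It fell by 0.74 (SD 0.13, n = 4, adjusted p = 0.0060 by limma) and kept its call under all 14 alternatives. *Ppp2r3b* had 214.6, 222.8, 210.2 and 190.1 in CR, against 324.3 in control (-0.63 ± 0.10, adjusted p = 0.032). *Ppp2r5e* had 498.7, 495.3, 431.0 and 529.7 in CR, against 695.2 in control (-0.51 ± 0.13, adjusted p = 0.034).

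In the other direction *Ppp2r3a*, a subunit of the same calcium-binding family as *Ppp2r3b*, had 217.0, 218.5, 290.6 and 259.6 in CR, against 149.1 in control (0.71 ± 0.20, adjusted p = 0.038). A second probe set of *Ppp2r3a* was at 0.63 and just missed the threshold (adjusted p = 0.052). For *Ppp2r5e* the 3 other tested probe sets were at -1.28, -0.87 and 0.78, none of them called. The catalytic subunits *Ppp2ca* (-0.37 ± 0.07, adjusted p = 0.071) and *Ppp2cb* (-0.18 ± 0.08) were below control on all 4 CR arrays without passing, and of this pair *Ppp2ca* holds the full cyclic AMP element shown above. Without the array of 5% CR the calls of *Ppp2r5e* and *Ppp2r3b* were lost (adjusted p = 0.058 and 0.052), as was that of *Ppp2r5e* without 10% CR (0.054) and that of *Ppp2r3a* without 20% (0.063) or 30% CR (0.058). Averaging the probe sets turned *Ppp2r3b* to 0.09.

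Calcineurin, the phosphatase that calcium and calmodulin activate, had no called subunit. *Ppp3ca* had 1828.4, 2052.6, 2143.9 and 1769.3 in CR, around 1973.3 in control (-0.02 ± 0.13). *Ppp3cb* was at -0.28 ± 0.12 and the calcium-binding subunit *Ppp3r1* at -0.26 ± 0.15, both below control on all 4 arrays. Another probe set of *Ppp3cb* was called lower, at -1.28. For *Ppp3r1* another tested probe set went the other way without being called, at 0.87, with 75.2 to 139.4 in CR and 57.7 in control. In the PP4 to PP6 group *Ppp4r2*, a regulatory subunit of PP4, had 341.9, 329.0, 313.3 and 366.0 in CR, against 513.0 in control (-0.61 ± 0.09, adjusted p = 0.020). Its other tested probe set went the other way, at 0.13, with 209.7 to 263.6 in CR and 224.5 in control. The other 8 tested genes of that group lay between -0.85 and 0.66 and did not pass.

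**Figure D3:**
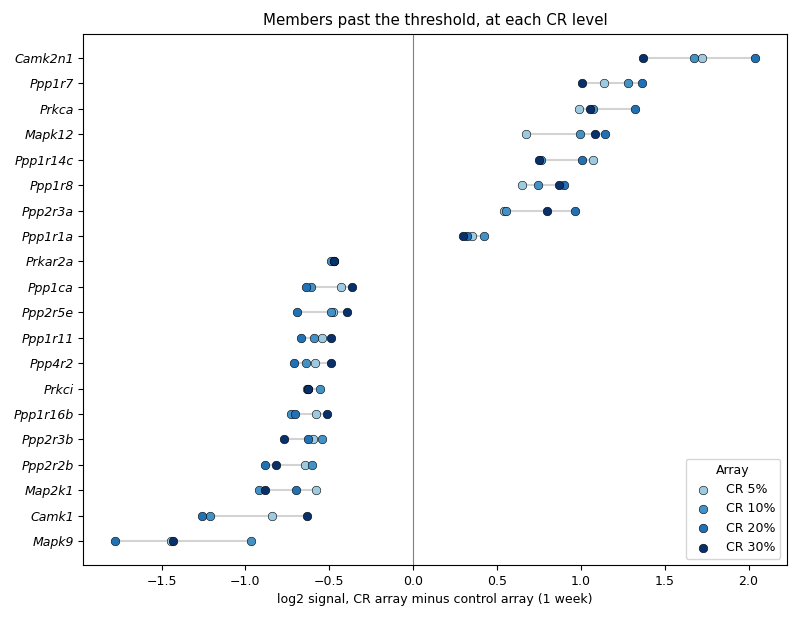
Each row is a called member, and its 4 points are log2 signal of a CR array minus the control array at 1 week (x axis), darker with the CR level, joined by a grey line. All 4 points lie on the same side of 0 in each of the 20 rows, and the 4 levels are in no common order.

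At single CR levels, 18, 24, 27 and 21 of the 96 members were past 1.5-fold at 5, 10, 20 and 30% CR. At 5% CR 7 were higher (7.29%, against 20.7% of all probe sets and 16% of named genes) and 11 lower (11.5%, against 14.7 and 13.8%). At 10% CR 10 were higher (10.4%, against 21.9 and 16.8%) and 14 lower (14.6%, against 16.6 and 15.9%). At 20% CR 10 were higher (10.4%, against 22.6 and 17.4%) and 17 lower (17.7%, against 17.1 and 17%). At 30% CR 8 were higher (8.33%, against 19.5 and 15.3%) and 13 lower (13.5%, against 13.7 and 12.6%). At each level a smaller share of members than of all probe sets was past the fold upward. There is 1 array per level, so these counts have no test.

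Within the CR arrays no member had a slope over the level of restriction past the threshold (0 of 96 by limma, adjusted p = 0.999, and 0% of all probe sets tested). At an unadjusted p under 0.05 there were 4 members, 4.17% beside 4.79% of all probe sets and 4.35% of named genes. *Ppp1cb* (0.030 log2 units per percent of restriction, SE 0.010), *Prkcq*, a PKC form known from T cells (0.033), and *Ppp2r1a*, a scaffold subunit of PP2A (0.019), had positive slopes, and *Prkacb* a negative one (-0.018). *Prkcq* had 77.9, 98.9, 123.8 and 141.5 from 5 to 30% CR, with 128.0 in control. The steepest negative values were those of *Map2k6* (-0.037), *Ppp6c* (-0.033) and *Prkcd* (-0.019), and *Ppp2r3c* had 0.032. The median ratio of highest to lowest CR signal was 1.25 over members, 1.32 over named genes and 1.36 over all probe sets tested.

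Probe sets of the same gene often differed in sign. For 25 member genes with more than 1 tested probe set there were 34 pairs of the brightest with another, and 17 of them had the same sign, 50%, beside 56.5% of 2354 such pairs over all named genes. The 34 dimmer probe sets included 7 of the 27 called probe sets among the 130 tested ones of the members, all 7 of them lower. *Prkacb* and *Prkar1a* were at 0.15 and 0.29 on the brightest and at -1.58 and -1.50 on a called dimmer one. *Ppp2r1a* had -0.47 and -3.00, and *Ppp1r2*, a PP1 inhibitor, -0.30 and -1.75. *Camk2g* had -0.11 on the brightest and 1.58 on the other, neither of them called. Probe sets can read different ends or forms of a transcript, which was not tested here.

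**Figure D4:**
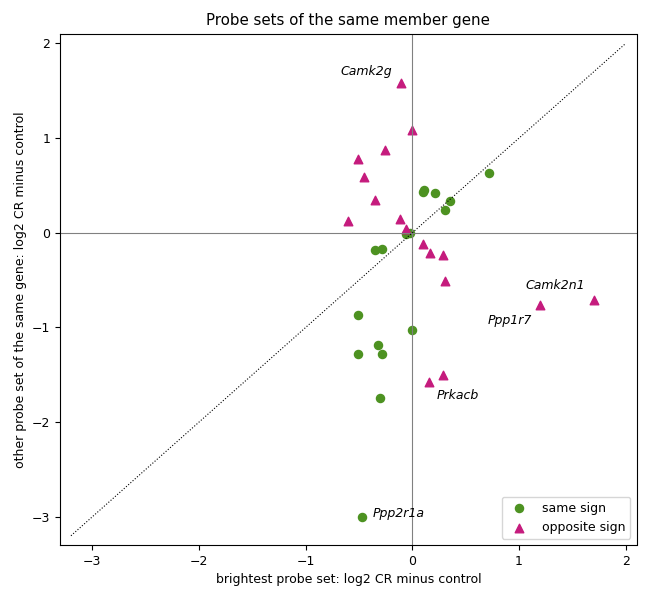
Each point sets the log2 difference between CR and control at 1 week of a member's brightest probe set (x axis) against that of another tested probe set of the same gene (y axis), for 34 pairs of 25 genes. Green circles have the same sign (17 pairs) and pink triangles opposite signs, and the dotted line marks equal values.

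Other genes of the pathways were read from lists by role. Of 18 tested genes of cyclic AMP supply and removal, 4 were lower and 1 higher, 27.8% called, beside 25.5% of all probe sets. *Gnas*, the stimulatory G protein subunit, had 4187 to 4683 in CR, against 7619 in control (-0.76, adjusted p = 8.8e-04), and *Adcy2* (-0.56), *Adcy3* (-0.70) and the cyclic AMP-responsive factor *Crem* (-0.82) were also lower, while *Pde10a* was higher (0.70). Of 12 PKA anchors and inhibitors, *Akap12* was lower (-0.50), 8.33% called. Of 19 genes of the calcium and diacylglycerol signal 4 were called, 21.1%. *Rcan1*, an inhibitor of calcineurin, had 103.3 to 122.4 in CR, against 355.5 in control (-1.67, adjusted p = 0.0011). *Plcb1*, a phospholipase C, was lower too (-0.96), and the calmodulin-binding *Pcp4* (0.63) was higher, as was the diacylglycerol kinase *Dgki* (1.22), whose control signal of 45.9 was under the cut of the filter.

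Among genes acting before and after the MAP kinases, 6 of 23 tested were higher and none lower, with a median of 0.20. The share called was 26.1%, near the 25.5% of all probe sets, of which 14.5% were higher and 11% lower. *Map3k12* (1.80) and *Map3k11* (1.56), kinases upstream of JNK, were higher, as were *Map3k4* (0.54) and the ERK-activated kinase *Rps6ka3* (0.92). The ERK phosphatases *Dusp6* (613.3 to 829.5 in CR, against 167.5 in control, 2.04) and *Dusp7* (528.4 to 652.1 in CR, against 206.0 in control) were higher too. Of 20 other phosphatases and phosphatase inhibitors 25% were called. The PP2A inhibitors *Arpp19* (-1.02) and *Anp32e* (-0.67) and the PP2A activator *Ptpa* (-0.63) were lower, and *Ppm1l* (0.48) and *Phactr4*, which binds PP1 (0.97), were higher. All these values share the control array with the members.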

How the data were processed

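The authors hybridised 1 pool of RNA per group to the Affymetrix Rat Genome array and deposited linear MAS5 signal intensity, with a column for each array. The submitters' processing notes name MAS5, which subtracts mismatch signal and leaves dim probe sets noisy after log2. The deposited arrays of 1 week share a mean of 158.8 after trimming. The 4 values of 0 were set to 0.1 and log2 was taken without a pseudocount.

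Probe sets were named from the platform annotation. Of 31099, 20832 had 1 symbol, 436 several and 9831 none, and 3 probe sets with several symbols that match a member were left out. All 116 symbols were found in RefSeq by Entrez identifier, with 0 updates. The 57 control probe sets were left out.

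R 4.3.3 with limma 3.58.1 (lmFit, eBayes with an intensity trend) compared the 4 CR arrays with the control array, with 3 residual degrees of freedom, on probe sets above the 50th percentile of mean log2 signal. A slope over CR level used the 4 CR arrays, with 2. Benjamini-Hochberg adjustment ran over all probe sets tested. The 4 CR levels are not replicates of a dose. In the comparison with control the residual spread came from the 4 CR arrays alone, so it mixes level, pool and array. The spread of the control was not measured. Both fits were run on simulated data. There the control array was given the spread of the CR arrays, so the simulation cannot check that assumption. Python 3.11.15, pandas 2.3.3, numpy 2.4.6 and matplotlib 3.10.9 made the tables and figures. The number of arrays limits the precision.

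Members, lists and rules were chosen with earlier results of these data known. Named genes were, per role, up to 4 called members in each direction with every CR array on one side of control, a set of textbook isoforms, and the 3 largest slopes in each direction. *Prkar1b*, *Camk2d*, *Camkv*, *Map2k2* and other members given as values were added after their values were seen. The alternatives tried were scaling by median or quantile, dropping the filter or moving it to the 75th percentile, a filter giving the control the weight of the CR mean, a pseudocount of 13.7 (the 20th percentile), a prior that is robust or has no trend, omission of each CR array in turn, averaged probe sets, catalytic subunits alone, 2-fold rather than 1.5-fold, and a slope that took in the control at 0%. Cyclic loess was added after the data were seen. No detection calls were used.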

Additional observations from a re-analysis of the deposited data

Results flagged for a closer look

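Among the 39 named genes examined, 2 had a CR array far from the other 3 by Dixon's ratio of gap to range. For *Prkci* the ratio was 0.978, where 10% CR had 466.3 and the other levels 443.5 to 444.0. For *Prkar2a* it was 0.830, where 10% CR had 304.1 and the others 307.5 to 308.2. In both the distance was small beside the signal. Chance alone flags about 1 in 20 groups, and the 4 arrays are 4 levels of restriction.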

How the results depend on the processing

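Of 20 called members, *Map2k1*, *Mapk9* and *Ppp2r2b* stayed past the threshold in every alternative that tested them, and 8 lost the call in 1. *Prkci* also stayed where tested, but averaging its 3 probe sets, which left it untested, gave 1.14 and the opposite sign, and averaging those of *Prkar2a* 0.72. Median centring gave 47 calls, 2 higher and 45 lower, 19 kinases and 28 phosphatases, and 39.1% of all probe sets. Without the intensity trend there were 11 calls, 4 lower, and 5 phosphatases. Averaged probe sets gave 5 higher, and leaving out each CR array 5 to 8. The kinase minus phosphatase median was 0.0897 with the filter at the 75th percentile, 0.0894 without a filter, 0.0719 with the pseudocount, 0.0730 with cyclic loess, 0.0694 to 0.0995 leaving out each CR array and -0.0369 with averaged probe sets. For catalytic kinases it was 0.156 against catalytic and 0.200 against regulatory phosphatase subunits. Past 2-fold there were 6, 5, 8 and 6 members at 5, 10, 20 and 30% CR. Past 1.5-fold there were 53, 57, 57 and 46 with median centring, and 11 at 5% CR with quantile scaling. Slopes at an unadjusted p under 0.05 numbered 7 without a filter. Signs turned in 13 named genes, 11 of them not called. With averaged probe sets *Camk2b* was 0.013, *Ppp2ca* 0.67, *Ppp2r3b* 0.088, *Ppp3ca* 0.59, *Prkacb* -0.69, *Prkar1a* -0.48 and *Prkcb* 0.019. With median centring *Camk2a* was -0.42, *Mapk8* -0.34, *Ppp1cc* -0.16, *Ppp1r1a* -0.091, *Prkacb* -0.29, *Prkar1a* -0.15 and *Prkcd* -0.42. With cyclic loess *Ppp1cb* was 0.0087, *Prkacb* -0.028, *Prkcb* 0.069 and *Prkcd* -0.10, and with quantile scaling *Ppp1cb* was 0.047, *Prkacb* -0.035, *Prkcb* 0.11 and *Prkcd* -0.055. Leaving out each CR array gave -0.049 to 0.059 for *Camk2a*, -0.20 to 0.12 for *Ppp1cb*, -0.070 to 0.022 for *Ppp3ca*, -0.0585 to 0.0447 for *Prkcb* and -0.11 to 0.19 for *Prkcd*. The causes were not tested. The control array could not be left out. No paired analysis was possible because each group has 1 array and the labels give no replicate numbers. Signals near background limit the dim members most.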
